A study of Arabidopsis thaliana with 4 samples.

Results

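The 10 genes described here encode 2-oxoglutarate-dependent oxidases that make and inactivate gibberellin, the hormone that promotes elongation of the dark-grown stem. They were chosen by locus identifier, without regard to their values, as GA20OX1, GA20OX2, GA20OX3, GA3OX1, GA3OX2, GA2OX1, GA2OX2, GA2OX4, GA2OX6 and GA2OX8. They are 10 of the 23695 loci with any read in the series. Every member had a read in at least 1 library, and 8 of the 10 were abundant enough to be compared.

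The data are RNA-seq libraries of the hypocotyl, or seedling stem, of Arabidopsis thaliana plants raised on 1/2 MS medium in the dark and taken at 4 days of age. The wild type Col-0 and arf7, which carries a T-DNA insertion in the gene of the auxin response factor ARF7, were each grown without added auxin (mock) or with NAA (naphthalene acetic acid), a synthetic auxin, at 500 nM. The labels name no allele and do not say how many plants were pooled. Each combination of genotype and treatment was 1 library, so a comparison sets single libraries side by side. Where 4 values of a gene are listed, they are in the order Col-0 mock and NAA, then arf7 mock and NAA. Ranges in parentheses are 95% counting intervals, which leave out any spread between plants.

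Gibberellin 20-oxidases carry a precursor through several oxidation steps, and gibberellin 3-oxidases then add the hydroxyl group that makes it active. Gibberellin 2-oxidases hydroxylate another carbon and inactivate the hormone or its precursors. Active gibberellin binds GID1 receptors, which leads to the destruction of DELLA repressor proteins. In Arabidopsis the pathway feeds back on its own genes, since gibberellin lowers transcripts of several 20- and 3-oxidases and raises those of several 2-oxidases, and auxin is also known to change transcripts of members of these families.

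ARF7 itself (AT5G20730) was barely counted, with 8 and 8 reads in the mock and NAA libraries of Col-0 and 3 and 1 in those of arf7. Both arf7 libraries combined were 4.15-fold lower than Col-0 (1.34 to 17.1), the direction of the labels. These reads covered 1.14% to 2.03% of the ARF7 model, so the check rests on a small stretch of the gene. Depth was alike, from 6.997 to 7.41 M counts a library. The 17317 loci compared had a mean of 1 CPM or more, where CPM is a count scaled to a common library size. The Col-0 NAA library stood apart, since its Spearman correlation to the other libraries over loci was 0.847 to 0.881 and theirs to each other 0.968 to 0.981. No comparison that uses this library can be made without it. Of the markers of dark-grown seedlings, PHYA had 47, 345, 36 and 84 reads over 4.39% to 4.75% of its model. PORA had 373 reads in Col-0 NAA, over 6.52% of the first of its 2 listed models, and 0 in the others.

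The sequences below are the 300 bases before the start of 4 members, taken from the RefSeq TAIR10.1 assembly. GA20OX1 is shown because it was all but absent from the arf7 libraries, GA3OX1 because its NAA response had opposite directions in the genotypes, GA2OX6 because it was the most abundant member, and GA2OX8 because it has an auxin response motif next to its start. Each is written 5′ to 3′ on the strand of the gene and ends at the more upstream of the deposited model's start and the RefSeq gene's start. Capitals mark TGTCNN, the general form of the element bound by auxin response factors, on either strand. The intervals are chr4:12992586-12992885 (reverse strand) for GA20OX1, chr1:5346343-5346642 (reverse) for GA3OX1, chr1:486500-486799 (forward) for GA2OX6 and chr4:11302382-11302681 (forward) for GA2OX8.
GA20OX1: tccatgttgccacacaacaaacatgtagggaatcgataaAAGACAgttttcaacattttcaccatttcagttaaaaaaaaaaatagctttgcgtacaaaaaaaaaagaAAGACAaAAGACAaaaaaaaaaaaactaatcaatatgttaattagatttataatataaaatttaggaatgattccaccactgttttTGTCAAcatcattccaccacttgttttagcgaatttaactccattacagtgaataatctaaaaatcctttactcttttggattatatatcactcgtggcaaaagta
GA3OX1: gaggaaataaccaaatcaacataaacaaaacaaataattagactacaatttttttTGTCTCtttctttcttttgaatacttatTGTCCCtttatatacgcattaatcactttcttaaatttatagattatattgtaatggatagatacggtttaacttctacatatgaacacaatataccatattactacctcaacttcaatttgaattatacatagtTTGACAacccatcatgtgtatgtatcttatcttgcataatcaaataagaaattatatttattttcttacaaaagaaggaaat
GA2OX6: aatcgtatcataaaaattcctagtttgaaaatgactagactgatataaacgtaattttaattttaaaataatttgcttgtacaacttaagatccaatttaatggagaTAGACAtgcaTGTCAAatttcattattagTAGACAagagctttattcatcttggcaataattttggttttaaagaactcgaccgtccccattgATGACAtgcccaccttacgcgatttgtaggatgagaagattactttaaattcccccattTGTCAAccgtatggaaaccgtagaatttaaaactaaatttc
GA2OX8: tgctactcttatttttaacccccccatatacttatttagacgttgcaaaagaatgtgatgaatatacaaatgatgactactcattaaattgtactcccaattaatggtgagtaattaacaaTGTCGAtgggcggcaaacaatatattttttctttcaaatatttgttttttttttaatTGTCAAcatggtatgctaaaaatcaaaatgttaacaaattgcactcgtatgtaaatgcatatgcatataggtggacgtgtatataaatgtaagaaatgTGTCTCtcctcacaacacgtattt

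TGTCNN occurred in these windows 4 times in GA20OX1, 3 times in GA3OX1, 5 times in GA2OX6 and 3 times in GA2OX8. The members not shown had 0 to 3, and the median over all loci was 2. TGTCNN was present in 9 of the 10 members, GA2OX4 being the exception, and in 80.9% of the 23544 windows of this length over all loci. The canonical auxin response element TGTCTC was present in 2 members against 13.1% of all windows. In GA2OX8 it starts 24 bases before the gene, and in GA3OX1 it starts 245 bases before it. Over 1000 bases TGTCTC was present in 3 members, GA3OX2 being the additional one, against 39.9% of all windows. The form TGTCGG was found in 0 members over either length, against 5.203% and 15.0% of all windows. All searches covered both strands, and TGTCTC and TGTCGG are also instances of TGTCNN.

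The sequences before the deposited starts of the members shared only short identical runs of bases, with 1 exception. Among the 45 pairs of members, GA20OX1 and GA20OX2 shared a run of 19 bases, GCTTGCTTATATAAAGACT, in the 300 bases before their deposited starts, and the next longest run of any pair was 13 bases. The run lies at chr4:12992475-12992493 in GA20OX1 and at chr5:21056844-21056862 in GA20OX2, reverse strand in both, and begins 35 and 54 bases before the deposited starts. RefSeq begins both genes further upstream, by 127 and 73 bases, so that it places the run inside the genes. Of 23545 such windows over all loci, only these 2 held the run.

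**Figure D1:**
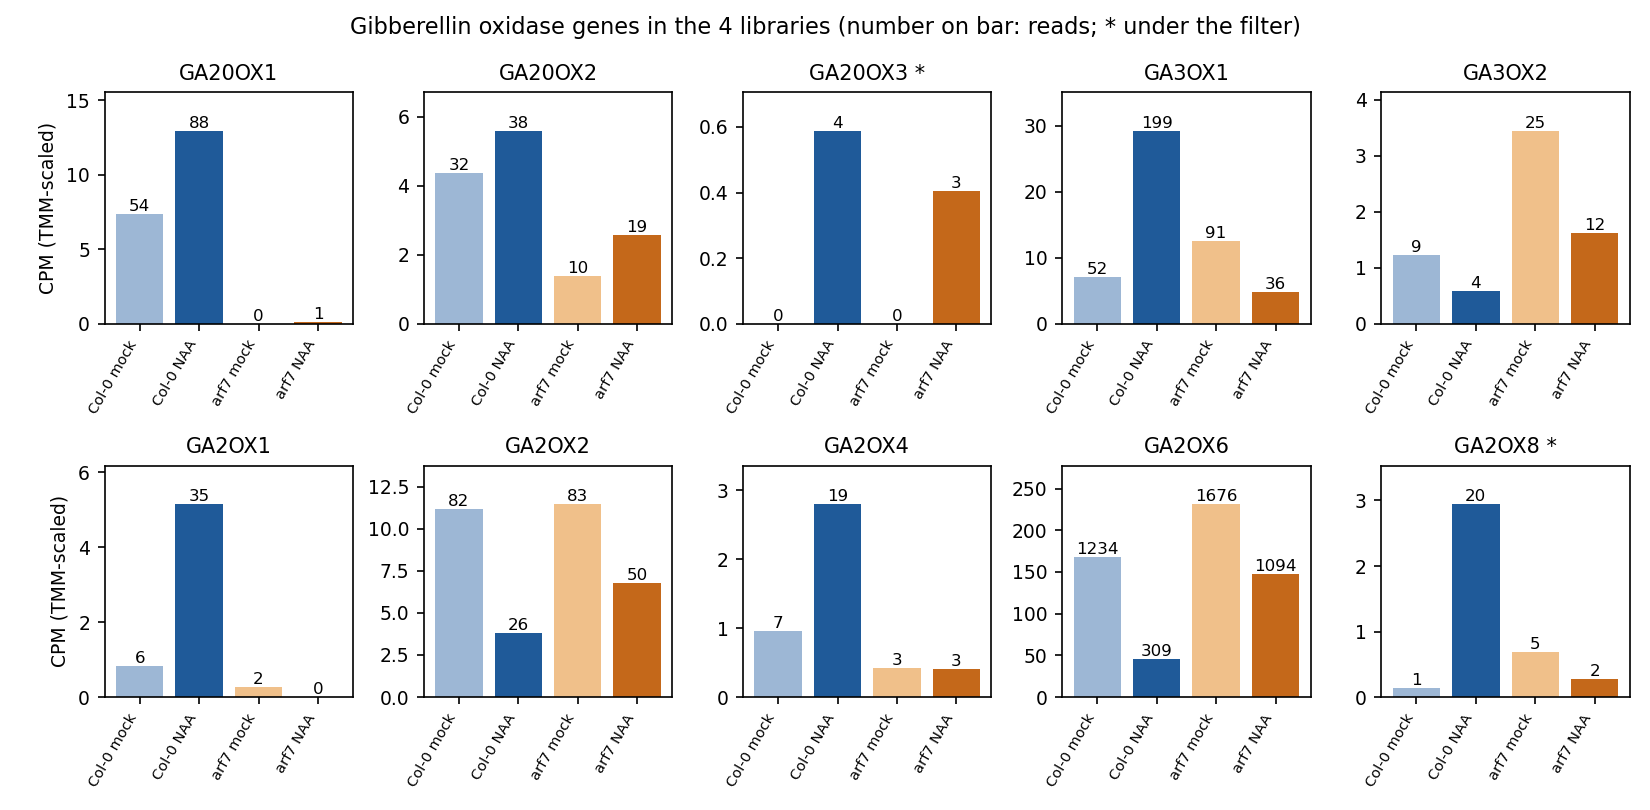
Level of each member in the 4 libraries, as TMM-scaled CPM on the y axis, with the number of reads written on each bar and an asterisk on the 2 members under the expression filter. There is 1 library per bar and no error bar. GA20OX1 bars in the arf7 libraries hold 0 and 1 reads, and GA2OX6 reaches 1676 reads.

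GA20OX1 and GA20OX2 were the synthesis genes that were lower in arf7, with and without NAA. GA20OX1 (AT4G25420, chromosome 4, 12990884 to 12992458, reverse strand, 2 exons, TAIR10) is the 20-oxidase of stem elongation, whose loss gives the semi-dwarf ga5 mutant. It had 54 reads in Col-0 mock and 88 in Col-0 NAA, over 74.9% and 89.3% of its model. In arf7 it had 0 reads in mock and 1 with NAA. Each arf7 value lay below each Col-0 value, where the libraries of a genotype differ in treatment and are not replicates. For this and the other synthesis genes below, the share of all loci that separate the genotypes was not counted.

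In mock GA20OX1 was at least 17.8-fold lower in arf7, with the 0 set at 3 reads. With NAA it was 88 reads against 1, a ratio of 96.1 (16.8 to 3837). Over both treatments Col-0 held 142 reads and arf7 1, a ratio of 147 (26.01 to 5857). Of the 11084 loci with at least 54 reads in Col-0 mock, GA20OX1 was the only one with no read in arf7 mock. That cutoff is the count of GA20OX1 itself, so the statement only describes this gene. By the log2 ratio of arf7 to Col-0 in mock, GA20OX1 ranked 2 from the lowest of the 17317 loci compared. The arf7 mutation and any other difference of the line from Col-0, at GA20OX1 itself included, cannot be told apart in these libraries. The NAA difference within Col-0, 1.76-fold higher (1.24 to 2.52), was below the fold of 2 required here, and arf7 had too few reads for a fold.

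**Figure D2:**
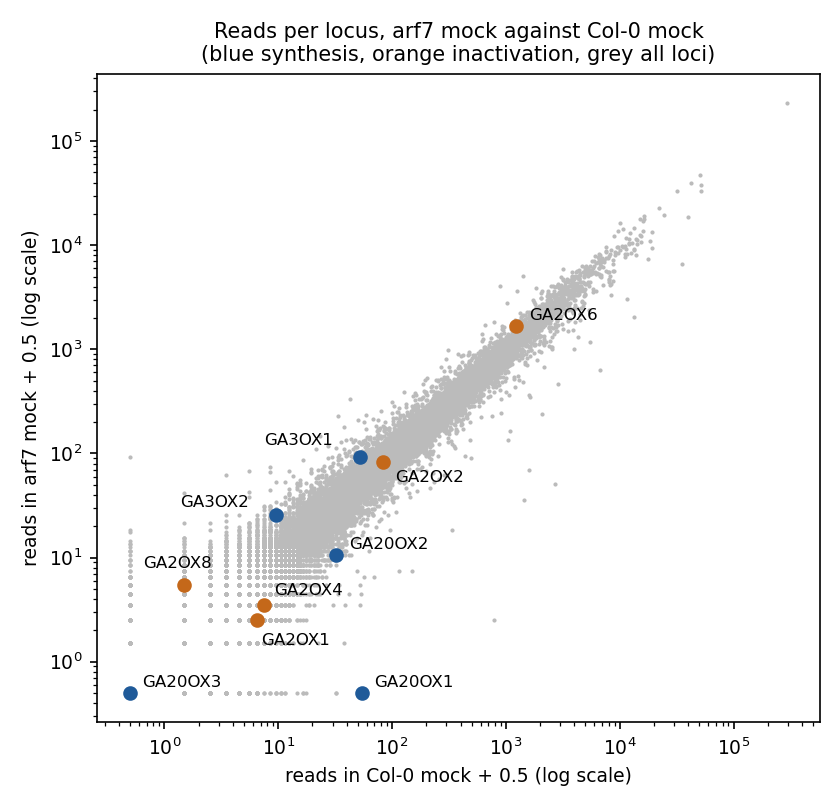
Reads per locus in arf7 mock (y axis) against Col-0 mock (x axis), both with 0.5 added and on log scales, 1 grey point per locus, with synthesis members in blue and inactivation members in orange. GA20OX1, at 54 reads in Col-0 mock and 0 in arf7 mock, lies apart from the diagonal, while GA2OX6 and GA2OX2 lie along it.

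Most loci around GA20OX1, chosen after its values were seen, had reads in both genotypes. On the side of its 3′ end, AT4G25410 had 77 reads in Col-0 mock and 56 in arf7 mock, a fold of 0.737 (0.513 to 1.05). AT4G25390 had 137 and 134, a fold of 0.991 (0.775 to 1.27). On the other side, the nearest locus AT4G25430 had 0 reads in both mock libraries and gives no comparison. AT4G25433 had 5 and 13, and ZFWD1 (AT4G25440) had 182 and 167, a fold of 0.930 (0.749 to 1.15). Among the neighbours shown, the one that met the size rule in mock was CBF2 (AT4G25470), a transcription factor of the cold response whose start lies 24393 bases from that of GA20OX1. CBF2 had 95 reads in Col-0 mock and 18 in arf7 mock, a fold of 0.192 (0.109 to 0.320), while with NAA it had 196 and 199.

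**Figure D3:**
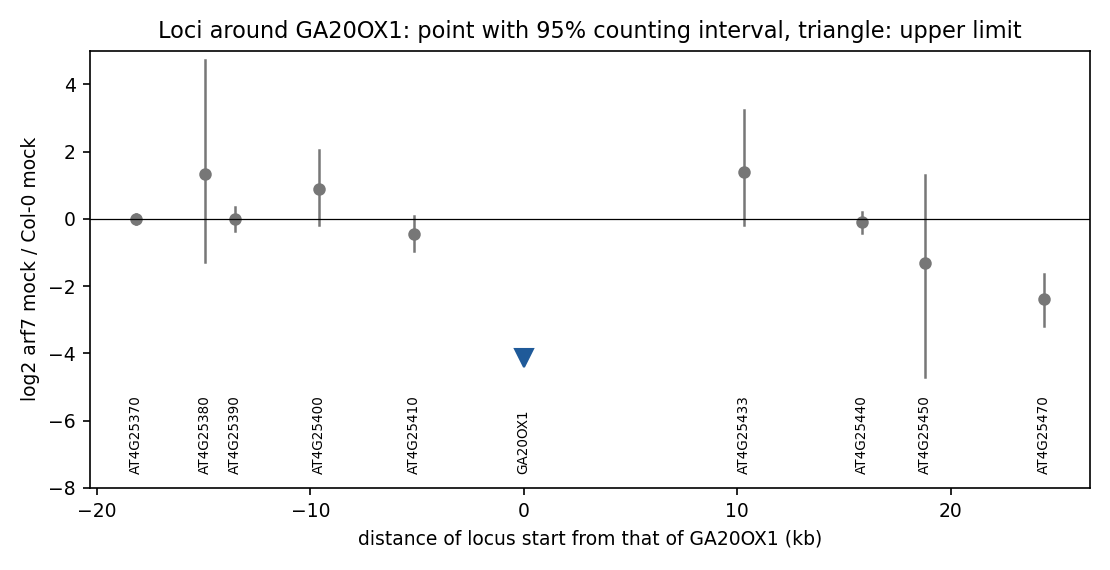
Log2 ratio of arf7 mock to Col-0 mock (y axis) for loci around GA20OX1, by the distance of their start from that of GA20OX1 in kb (x axis). Points carry 95% counting intervals and the triangle is the upper limit for GA20OX1, with its 0 reads set at 3; loci with at most 3 reads in both libraries are left out. Only GA20OX1 and CBF2 (AT4G25470) lie below 0 with their interval or limit.

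GA20OX2 (AT5G51810, chromosome 5, 21055188 to 21056808, reverse strand, 2 exons), a second 20-oxidase of vegetative and flower growth, had 32 reads in mock and 38 with NAA in Col-0, against 10 and 19 in arf7. Both arf7 libraries lay below both Col-0 libraries. It was 3.16-fold lower in arf7 in mock (1.51 to 7.20) and 2.18-fold lower with NAA (1.23 to 4.01). NAA differences were 1.28-fold higher in Col-0 (0.781 to 2.12) and 1.86-fold higher in arf7 (0.821 to 4.47), and neither interval leaves out 1. Ordered from high to low as Col-0 NAA, Col-0 mock, arf7 NAA and arf7 mock, no neighbouring pair differed beyond its counting interval. GA20OX3 (AT5G07200, chromosome 5, 2243553 to 2245339, reverse strand, 3 exons), another 20-oxidase, had 0, 4, 0 and 3 reads and was not compared.

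GA3OX1 responded to NAA in opposite directions in the genotypes. GA3OX1 (AT1G15550, chromosome 1, 5344478 to 5346166, reverse strand, 2 exons), the 3-oxidase of vegetative growth that is lost in the dwarf ga4 mutant, had 52 reads in Col-0 mock and 199 in Col-0 NAA. In arf7 it had 91 in mock and 36 with NAA. Its highest value was in Col-0 with NAA and its lowest in arf7 with NAA.

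NAA gave a 4.14-fold higher level in Col-0 (3.04 to 5.73) and a 2.59-fold lower level in arf7 (1.74 to 3.92). The log2 response of arf7 minus that of Col-0 was -3.40 (-4.10 to -2.69). In mock arf7 was 1.77-fold higher than Col-0 (1.25 to 2.54), below the fold of 2 required, and with NAA it was 6.03-fold lower (4.21 to 8.86). In the order of the libraries, Col-0 NAA exceeded arf7 mock 2.33-fold (1.81 to 3.02) and arf7 mock exceeded Col-0 mock, while Col-0 mock and arf7 NAA did not differ beyond counting error (1.46-fold, 0.935 to 2.30).

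GA3OX2 (AT1G80340, chromosome 1, 30200693 to 30202200, reverse strand, 2 exons), a 3-oxidase of germination and seedling growth, had few reads, 9 in mock and 4 with NAA in Col-0, against 25 and 12 in arf7. Both arf7 libraries lay above both Col-0 libraries, but arf7 NAA and Col-0 mock did not differ beyond counting error (1.32-fold, 0.511 to 3.55). It was 2.82-fold higher in arf7 in mock (1.27 to 6.86). With NAA the ratio was 2.75 (0.833 to 11.7), and its interval includes 1. NAA gave a 2.13-fold lower level in arf7 (1.03 to 4.66), and in Col-0 the fold was 0.481 (0.108 to 1.72).

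**Figure D4:**
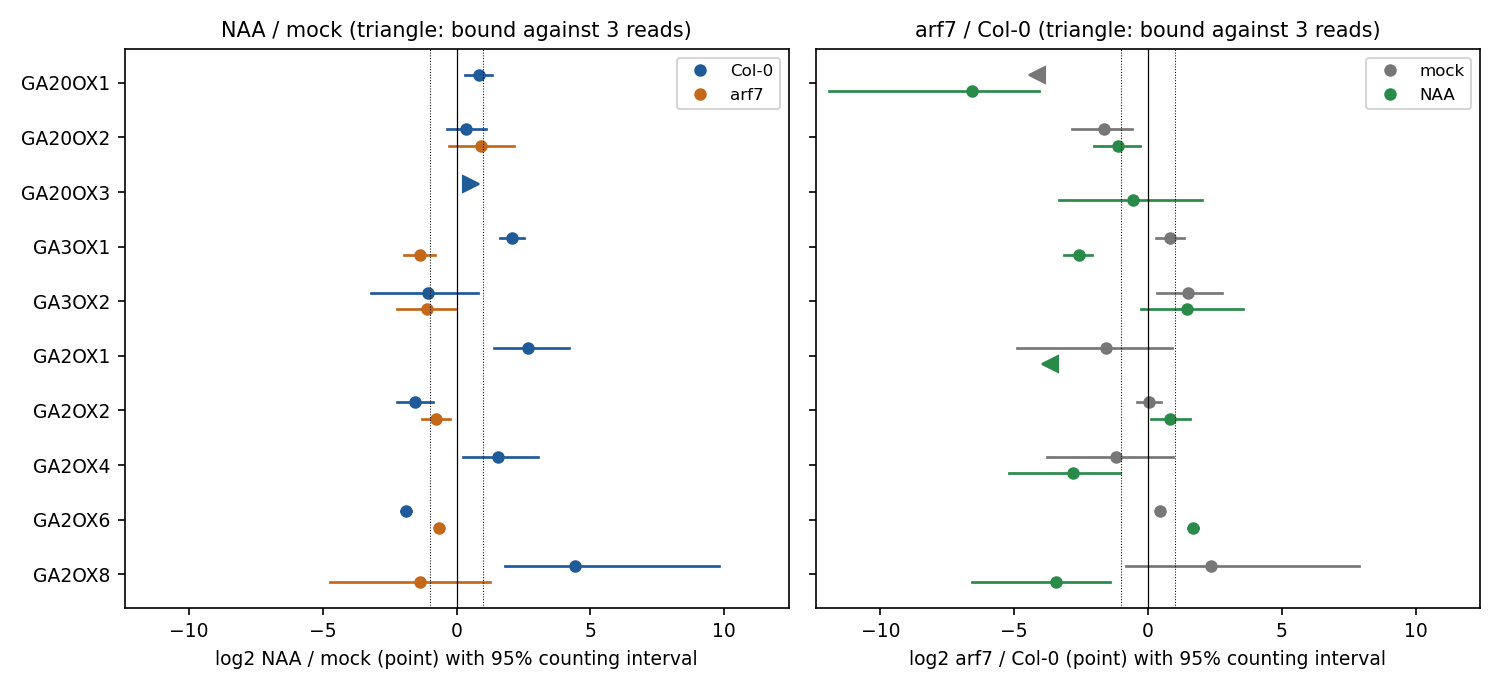
Log2 NAA over mock in Col-0 (blue) and arf7 (orange) on the left, and log2 arf7 over Col-0 in mock (grey) and with NAA (green) on the right, for each member. Points carry 95% counting intervals, triangles are bounds against 3 reads, dotted lines mark a fold of 2, and members with at most 3 reads in both libraries have no point. GA3OX1 lies at 4.14-fold higher in Col-0 and 2.59-fold lower in arf7 with NAA, and GA20OX1 lies far to the left in both genotype comparisons.

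GA2OX6 was the most abundant member in all 4 libraries, and its reads were lower with NAA in Col-0. GA2OX6 (AT1G02400, chromosome 1, 486801 to 489577, forward strand, 2 exons), a 2-oxidase of active gibberellins and their direct precursors, had 1234 reads in Col-0 mock and 309 in Col-0 NAA. In arf7 it had 1676 and 1094. The lowest value was in Col-0 with NAA and the other libraries lay well above it.

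NAA gave a 3.69-fold lower level of GA2OX6 in Col-0 (3.26 to 4.20) and a 1.57-fold lower level in arf7 (1.45 to 1.69), below the fold required. The log2 response of arf7 minus that of Col-0 was 1.23 (1.02 to 1.45). The arf7 library was 1.38-fold higher in mock (1.28 to 1.48) and 3.24-fold higher with NAA (2.86 to 3.69). Every neighbouring pair in the order arf7 mock, Col-0 mock, arf7 NAA, Col-0 NAA differed beyond counting error, the closest by 1.14-fold (1.05 to 1.24). Among the 17317 loci compared, GA2OX6 ranked 1188 by CPM in mock and 4744 with NAA in Col-0, against 761 and 1383 in arf7.

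GA2OX2 (AT1G30040, chromosome 1, 10537648 to 10539831, forward strand, 2 exons), another 2-oxidase of active gibberellins, had 82 reads in mock and 26 with NAA in Col-0, against 83 and 50 in arf7. The mock libraries were level, at a ratio of 1.03 (0.747 to 1.41), and both NAA libraries were lower. The difference with NAA was 2.92-fold in Col-0 (1.86 to 4.73), which met the size rule, and 1.70-fold in arf7 (1.18 to 2.46), which did not. The difference of the log2 responses was 0.77 (-0.04 to 1.57) and did not meet the rule for a difference. Its reads were split over 2 listed models, the first covered over 29.8% to 35.6% of its length, so the gene was measured on a part of its sequence.

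The remaining 2-oxidases had their highest value in Col-0 with NAA. GA2OX1 (AT1G78440, chromosome 1, 29511599 to 29513051, reverse strand, 3 exons), a 2-oxidase of active gibberellins, had 6 reads in mock and 35 with NAA in Col-0, against 2 and 0 in arf7. GA2OX4 (AT1G47990, chromosome 1, 17698655 to 17700834, forward strand, 3 exons), of the same class, had 7, 19, 3 and 3 reads. GA2OX8 (AT4G21200, chromosome 4, 11302685 to 11306601, forward strand, 3 exons), which acts on early precursors with a longer carbon skeleton, had 1, 20, 5 and 2 reads. GA20OX1, GA20OX2, GA20OX3 and GA3OX1 also had their highest value in that library, and the share of all loci that do was not counted.

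With NAA in Col-0, GA2OX1 was 6.31-fold higher (2.62 to 18.3) and GA2OX4 2.93-fold higher (1.18 to 8.26). In arf7 with NAA, GA2OX1 was at least 12.7-fold lower than in Col-0 with NAA, and GA2OX4 6.91-fold lower (2.04 to 36.5). GA2OX8 had a ratio of NAA to mock of 21.6 in Col-0 (3.46 to 896) and was 10.9-fold lower in arf7 with NAA (2.65 to 96.3). Its mean of 0.979 CPM put it just outside the filter and GA2OX4, at 1.11 CPM, just inside. GA2OX1 and GA2OX4 passed the filter through the Col-0 NAA library, since without it their means were 0.365 and 0.597 CPM. The log2 response of GA2OX1 in arf7 minus that in Col-0 was -4.92 (-9.46 to -0.37), but the arf7 value rests on 2 and 0 reads.

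Levels were compared between members only per length, in RPKM (reads scaled by model length and library depth). In Col-0 mock GA2OX6 stood at 124 RPKM and the next member, GA2OX2, at 7.87, a ratio of 15.8 (12.6 to 20.01). GA2OX2 was measured on a part of its sequence, so its RPKM, its place in the order and ratios to it are uncertain. The counting intervals do not cover this. GA20OX1 at 5.69 and GA3OX1 at 5.59 RPKM followed, and the neighbours GA2OX2, GA20OX1 and GA3OX1 did not differ beyond counting error. GA20OX2 was at 3.09 RPKM, below GA3OX1 by 1.81-fold (1.14 to 2.91), and the rest were at 1.12 RPKM or less.

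With NAA in Col-0 the gap at the top was small. GA2OX6 stood at 32.2 RPKM and GA3OX1 at 22.1, a ratio of 1.46 (1.21 to 1.75), with GA20OX1 next at 9.58. In arf7 mock GA2OX6 was at 179 RPKM, 17.3-fold above GA3OX1 (14.0 to 21.6). In arf7 with NAA it was at 113 RPKM, 23.0-fold above GA2OX2 (17.3 to 31.1), with the same limit of GA2OX2. GA2OX6 held 83.2%, 40.0%, 88.0% and 89.4% of the members' summed RPKM over the 4 libraries.

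The summed RPKM of the 5 synthesis members was 15.5 in mock and 36.3 with NAA in Col-0, against 14.7 and 7.77 in arf7. That of the 5 inactivation members was 134, 44.0, 189 and 119 in the same order, and without GA2OX6 it was 9.64, 11.9, 9.78 and 5.63. The synthesis members thus made up 45.2% of the members' sum in Col-0 NAA, against 10.4% in Col-0 mock, 7.22% in arf7 mock and 6.13% in arf7 NAA. These sums add transcript levels of enzymes with different substrates, and they include GA2OX2, which was measured on a part of its sequence.

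**Figure D5:**
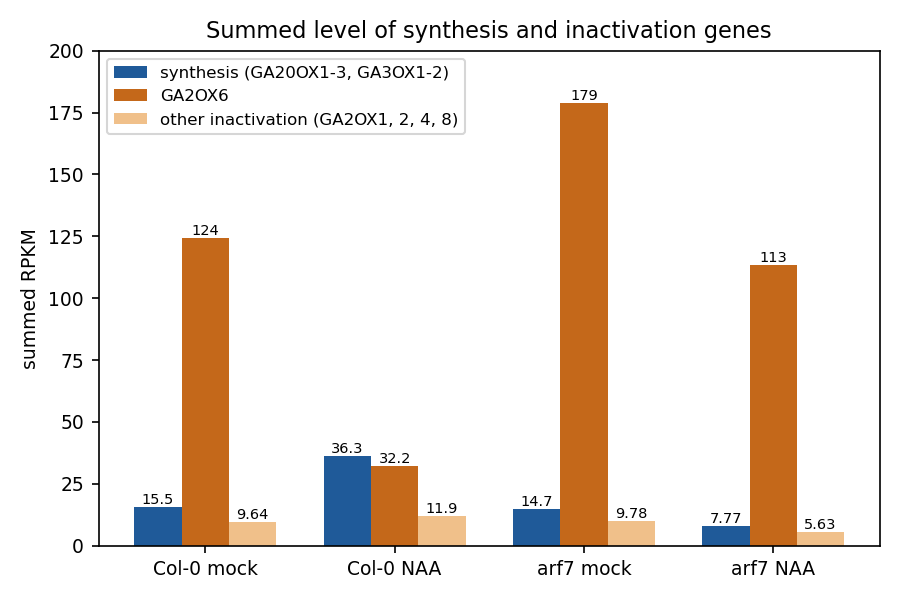
Summed RPKM (y axis) of the synthesis members, of GA2OX6 and of the other inactivation members in each of the 4 libraries, 1 library per group of bars and no error bar. In Col-0 NAA the synthesis members, at 36.3, stand beside GA2OX6 at 32.2, while in the other libraries GA2OX6 stands at 113 to 179 against 7.77 to 15.5 for synthesis.

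Counted over the members, the size rule asks that a difference reach 2-fold and that its counting interval leave out 1. With NAA in Col-0, 3 of the 8 compared members were higher and 2 lower, where 28.2% of all loci met the rule, 15.2% as higher and 13.1% as lower. The members' median log2 was 0.58 against -0.01 over all loci. With NAA in arf7, 0 were higher and 2 lower (GA3OX1 and GA3OX2), where 8.23% of all loci met the rule (3.91% as higher, 4.33% as lower), and the median was -0.70 against 0.00. Over the 5 members with more than 3 reads in either arf7 library the median was -0.76.

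In mock, 1 member was higher in arf7 (GA3OX2) and 2 were lower (GA20OX1 and GA20OX2), where 4.63% of all loci met the rule, 2.33% as higher and 2.3% as lower. The median log2 was -0.52 against 0.01 over all loci. With NAA, 1 was higher (GA2OX6) and 5 were lower (GA20OX1, GA20OX2, GA3OX1, GA2OX1 and GA2OX4), where 24.9% of all loci met it (10.8% as higher, 14.1% as lower), with a median of -1.84 against 0.01. The NAA response differed between the genotypes in 1 member upward (GA2OX6) and 2 downward (GA3OX1 and GA2OX1), where 24.6% of all loci met the rule for a difference (11.4% upward, 13.2% downward). The median difference was 0.20 against 0.02, and 0.50 over the 5 members with more than 3 reads in both genotypes. All comparisons share libraries with one another, and the filter let GA2OX1 and GA2OX4 in through a library where they are high, so these counts describe the list and support no more than that.

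An additive model of genotype and NAA over the 4 libraries was the one fit with an error term, and it had 1 residual degree of freedom. In this fit any difference of the NAA response between the genotypes counts as error. No spread between replicates of a group enters it. By the quasi-likelihood test of edgeR with Benjamini-Hochberg adjustment, 0 of 17317 loci passed an adjusted p of 0.05 for NAA and 0 for genotype, with 1400 (8.08%) and 578 (3.34%) at an unadjusted p under 0.05. DESeq2 called 249 and 69, and limma 0 and 0. GA20OX1 had a log2 genotype effect of -6.94 in edgeR (adjusted p of 0.608), -6.38 in limma (adjusted p of 0.866) and -7.25 in DESeq2 (adjusted p of 0.00337). It was lower in arf7 in both of 2 treatments. GA2OX6 had a log2 NAA effect of -1.26 with an adjusted p of 0.600 in edgeR, lower in both of 2 genotypes. GA3OX1, whose response had opposite signs, had a log2 NAA effect of 0.37 with an adjusted p of 0.923 in edgeR.

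The authors' deposited table for NAA in Col-0 lists 5 members, with log2 ratios of 4.37 for GA2OX8, 2.59 for GA2OX1, 1.98 for GA3OX1, -1.95 for GA2OX6 and -1.58 for GA2OX2. The authors' deposited table for arf7 in mock lists GA20OX1 alone, at a log2 ratio of -9.15, where the authors set an RPKM of 0 to 0.01. With NAA, the authors' deposited table lists GA2OX6 at 1.82, GA3OX1 at -2.47, GA2OX8 at -3.33, GA20OX1 at -6.46 and GA2OX1 at -8.64. The authors' deposited table for NAA in arf7 lists GA3OX1 alone, at -1.38.

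Of 27 other genes of the pathway, 17 were compared. The early synthesis genes were CPS, KS, KO, KAO1 and KAO2, and the remaining oxidases GA20OX4, GA20OX5, GA3OX3, GA3OX4, GA2OX3 and GA2OX7 had at most 4 reads in any library, with 0 of the 6 compared. With NAA in Col-0, 6 of the 17 were higher and 1 lower, beside 15.2% and 13.1% of all loci. In arf7, 0 were higher and 2 lower with NAA, beside 3.91% and 4.33%. Between the genotypes 0 of 17 met the rule in mock, where 4.63% of all loci did. With NAA 1 was higher and 7 were lower in arf7, beside 10.8% and 14.1%. Of the 17, 3 (KAO2, CYP714A1 and SNE) passed the filter through the Col-0 NAA library, where they are high, so these counts are a description only. The median log2 of the 17 was 0.21, 0.07, 0.00 and -0.54 in the order NAA in Col-0, NAA in arf7, arf7 in mock and arf7 with NAA.

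Among these, CYP714A1, a cytochrome P450 that inactivates gibberellin, had 1 read in mock and 331 with NAA in Col-0, against 2 and 4 in arf7. That is a ratio of 358 with NAA in Col-0 (63.8 to 14177), and arf7 was 90.3-fold lower with NAA (35.0 to 334). KS, which makes ent-kaurene early in the pathway, was 2.69-fold lower with NAA in Col-0 (2.00 to 3.64), with 180 reads in mock and 62 with NAA, against 203 and 142 in arf7. With NAA it was 2.10-fold higher in arf7 (1.55 to 2.88). KAO2, of the step before the 20-oxidases, had 8, 16, 5 and 4 reads over 5.99% to 9.52% of its model. It was 4.37-fold lower in arf7 with NAA (1.41 to 17.9).

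Of the 12 genes of perception and signalling, all were compared. With NAA in Col-0, the DELLA genes GAI at 2.20-fold (1.89 to 2.56), RGL1 at 2.49-fold (2.11 to 2.94) and RGL2 at 2.01-fold (1.37 to 2.99) were higher. SCL3, a signalling partner of the DELLA proteins, was 2.29-fold higher (1.97 to 2.68), and SNE, an F-box gene related to SLY1, had 19 reads against 2, a ratio of 10.3 (2.48 to 90.9). In arf7 with NAA, the receptor gene GID1B was 2.16-fold lower (1.85 to 2.52) and the DELLA gene RGL3 3.68-fold lower (2.72 to 5.06) than in arf7 mock. With NAA, arf7 was lower than Col-0 in GAI at 2.54-fold (2.17 to 2.99), RGL1 at 2.25-fold (1.92 to 2.65), RGL3 at 3.39-fold (2.49 to 4.69), SCL3 at 2.32-fold (1.99 to 2.71) and SNE at 2.59-fold (1.08 to 6.85).

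Loci whose pattern over the 4 libraries lay nearest to that of a member were sought among 4453 candidates with a symbol, by the Euclidean distance of centred log2 CPM values. Nearest to GA3OX1 were SCPL28 at a distance of 0.126, with 49, 177, 83 and 36 reads, KCS1 at 0.352, with 1266, 5497, 1865 and 997 reads, and PAL4 at 0.452. KCS1 encodes a fatty acid elongase enzyme of cuticular wax synthesis and PAL4 a phenylalanine ammonia-lyase. Nearest to GA2OX6 were OFP1 at 0.156, with 106, 29, 140 and 102 reads, CTF2B at 0.173 and the receptor kinase gene SERK4 at 0.178.

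Summed markers of root, aerial epidermis, shoot apex and seed were higher with NAA in Col-0. In arf7 the root and shoot apex sums were also higher, by less, while the aerial epidermis and seed sums were lower. The 11 root and root hair markers summed to 8.04, 361, 7.59 and 71.1 CPM, with 9, 11, 6 and 11 of them read. LRX2 alone gave 177 of the 361 CPM in Col-0 NAA. All 9 compared met the size rule as higher with NAA in Col-0 and also in arf7, beside 15.2% and 3.91% of all loci. That count only describes the list. Of the 9, 3 met the rule for a difference of the NAA response, all with a lower response in arf7, and 6 did not. The 5 aerial epidermis markers summed to 521, 2978, 649 and 613 CPM, all of them read in every library. PDF1 alone gave 1699 of the 2978 CPM in Col-0 NAA. Of the 5, 3 met the rule for a difference, also lower in arf7, while ATML1 and PDF2 did not. No compared marker of the shoot apex or seed met it. The 4 shoot apex markers summed to 4.63, 10.2, 4.56 and 6.61 CPM, with WUS at 0, 0, 0 and 1 read and CLV3 at 0, 1, 0 and 0. The 4 seed markers summed to 1.498, 7.95, 3.59 and 2.16 CPM, with CRA1 at 0 reads in all. SESA1 of that list was 3.62-fold higher in arf7 in mock (1.52 to 9.91), with 7 reads in Col-0 and 25 in arf7. The part of these cell types in the members' differences was not tested, and in such bulk libraries fewer cells of a type and less RNA per cell cannot be told apart.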

How the data were processed

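RNA-seq was made from hypocotyls of 4-day-old dark-grown seedlings, and each of the 4 groups was 1 library. The authors deposited a read count per transcript model, the percent of the model covered and an RPKM value, per the file headers. Coordinates are of TAIR10, as the submitters' processing notes state. The aligner and the read counter are not given in the sources used here. Tables of comparisons that the authors deposited hold a log2 ratio, a p-value and an FDR for the models past their filter, and 16 further columns of per-sample values there were not used. Whether strand was used in counting is not stated, so antisense and overlapping genes are uncertain.

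Counts were summed per locus and scaled by TMM (edgeR 4.0.16, R 4.3.3), with factors of 0.991 and 0.947 for the mock and NAA libraries of Col-0 and 1.04 and 1.03 for those of arf7. A locus was compared where its mean CPM on library totals reached 1. As each group was 1 library, pairwise comparisons carry no p-value. The size rule asked that the difference reach 2-fold and that the 95% exact conditional binomial (Clopper-Pearson) interval leave out 1, and the difference of NAA responses for at least 1 on the log2 scale with a 95% Wald interval that excludes 0. Intervals and floors cover counting error only, and reads without molecular identifiers are not independent molecules. A count of 0 was set at 3 counts in its library, which is 0.405 to 0.442 CPM. Log2 values were computed after adding 0.5. An additive model was fitted with edgeR, and with DESeq2 1.42.0 and limma 3.58.1 as alternatives.

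The members, gene lists and rules were chosen with earlier results of these data known. All members are named, and of the pathway genes those that met the size rule in any comparison. Patterns were compared for members with a mean of at least 10 CPM and a span of at least 1 log2 unit, over loci with a symbol and the same mean, and the 3 nearest were named. For sequences, 27045 of the 27412 models with a RefSeq TAIR10.1 locus (98.7%) lay inside it, and all 10 members were found there.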

Additional observations from a re-analysis of the deposited data

Results flagged for a closer look

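The NAA response of GA3OX1 lay in opposite directions in the genotypes, higher with NAA in Col-0 and lower in arf7. Its log2 response in arf7 minus that in Col-0 was -3.40. With 1 library per group the difference was not tested against any spread between plants.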

How the results depend on the processing

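Of the values of single members recomputed under the alternatives, 313 kept their direction and their side of the size rule and 5 passed it where they had not before, all at a fold of 1.5, and none reversed. Those 5 were GA20OX1 with NAA in Col-0 (log2 0.81), GA2OX2 (-0.76) and GA2OX6 (-0.65) with NAA in arf7, GA3OX1 in mock (0.82) and GA2OX2 with NAA (0.80) between the genotypes. Some of the 313 could not differ, since a change of filter leaves a member's own value as it was. With a mean of at least 5 CPM only GA3OX1, GA2OX2 and GA2OX6 were still compared. The other members, GA20OX1 included, have no value under that setting. Counts over all loci depended on the filter and the fold. They were 4891 for NAA in Col-0, 1426 for NAA in arf7, 802 for arf7 in mock and 4315 for arf7 with NAA. With a mean of at least 5 CPM they were 3240, 807, 396 and 2829, with fewer loci compared. At a fold of 1.5 they were 7370, 3068, 1822 and 6718, and the 4264 loci with a different NAA response became 6401. For the additive model, 0 loci for NAA became 249 and 0 for genotype became 69 with DESeq2, and 1 for genotype with no filter. Scaling by library totals moved the median log2 of all loci from 0.01 to 0.13 in arf7 with NAA, and no filter moved it from -0.01 to 0.11 for NAA in Col-0. With NAA, arf7 had 1869 loci higher and 2446 lower, but 2263 and 2178 when scaled by library totals and 2266 and 2177 by the deposited RPKM, so the larger side changed. No paired analysis was possible because each group has 1 library and the labels give no replicate numbers. Depth limits GA20OX3, GA2OX1, GA2OX4, GA2OX8 and GA3OX2, which have 35 reads or fewer in every library.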
